A study of Mus musculus with 6 samples.

Results

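The genes described here are 7 genes for growth factors and a receptor of whisker innervation. They are the neurotrophin genes Bdnf, Ntf3 and Ntf5, the GDNF family genes Gdnf, Nrtn and Artn, and Ngfr, the gene of the p75 neurotrophin receptor. They were chosen by name, with earlier results of these data known. All 7 were found among the 21755 protein-coding genes that the annotation places on the autosomes or the X chromosome. A peak was given to a gene when it overlapped the gene body or the 5 kb on either side. A peak up to 100 kb away was given to it as a distal peak when the protein-coding start site nearest to its highest pileup was that of the gene.

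Sensory fibres of the infraorbital nerve reach the whisker pad while the follicles form, and depend on factors made by the skin and its mesenchyme. Neurotrophins bind Trk receptor kinases and p75, whereas GDNF family ligands bind a GFRα co-receptor that acts through the kinase Ret. The p75 protein is used to mark nerve fibres and neural crest derivatives, and mesenchymal cells can also make it.

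H3K4me1, the monomethylated lysine 4 of histone H3, marks enhancers, both active and poised, as well as the flanks of promoters. CUT&Tag maps it with an antibody that brings a transposase to the mark, and the cut DNA is sequenced. The series holds 6 samples of E12 whisker pads from wild-type mice of strain B6/J2, dissociated to a suspension of cells, namely 3 stained for H3K4me1 and their 3 IgG controls. The H3K4me1 peak lists were used and no IgG values were analysed here, so there is no control condition and no test between groups. A pad holds mesenchyme, epidermis, muscle, nerve and vessels together. A weak peak in such a mixture can come from few cells with the mark or from little of the mark per cell, and these cannot be told apart. The sources used here do not say from which embryos or litters the pads came, so the spread between replicates may be partly technical.

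The lists held 16788, 12969 and 13998 peaks in replicates 1, 2 and 3. They are the top 1% of signal blocks of each replicate, and their total signal, which is the pileup of fragments summed over the bases of a peak, is not scaled to depth. Signal was therefore compared as a percentile, the share of peaks of the same list with a total signal at or below that of the peak. For H3K4me1 replicates 2 and 3 the source field of the labels reads adult kidney, against whisker pad in the title, and the title was followed. A peak lay at the gene body or its 5 kb flanks of 24.9, 22.6 and 19.6% of all protein-coding genes in replicates 1, 2 and 3. The same held for 16, 15 and 15 of 16 facial mesenchyme genes (100, 93.8 and 93.8%). For adult kidney genes it held for 3, 3 and 1 of 12 (25, 25 and 8.3%), near the share of all genes in replicates 1 and 2 and under it in replicate 3. Of the other lists, muscle genes had 6, 6 and 5 of 8 and surface ectoderm genes 5, 5 and 1 of 8. Schwann cell and nerve glia genes had 2, 2 and 0 of 8 (25, 25 and 0%), also near the share of all genes in replicates 1 and 2, and sensory neuron genes 0, 2 and 0 of 7, with Isl1 and Prph the genes called in replicate 2.

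Of the 7 genes, 6, 7 and 4 had a peak at the gene body or its 5 kb flanks in replicates 1, 2 and 3, on average 5.67 ± 1.53 (SD, n = 3). Among all protein-coding genes the shares were 24.9, 22.6 and 19.6%. Ntf3, Gdnf and Ngfr had such a peak in all 3 replicates, which is 42.9% of the 7 genes, against 15.5% of all protein-coding genes. For Ntf5, Nrtn and Artn it was found in replicates 1 and 2 and was missing in replicate 3, a pattern that 1199 protein-coding genes (5.51%) showed. Bdnf had one in replicates 2 and 3. These shares were not matched on gene length, and the 7 genes range from 3.5 kb in Ntf5 to 65.5 kb in Ntf3.

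Distal peaks fell to Bdnf, Ntf3, Gdnf and Ngfr only. They were found at 4, 4 and 3 of the 7 genes, against 8.93, 7.39 and 7.88% of all protein-coding genes. Ntf3, Gdnf and Ngfr had them in all 3 replicates (42.9%), which 5.71% of all protein-coding genes had. Together the 7 genes took 19, 18 and 18 peaks, on average 18.3 ± 0.577 per replicate (SD, n = 3). Of these, Ntf3 took 7, 6 and 7 and Ngfr 5, 5 and 5.

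**Figure D1:**
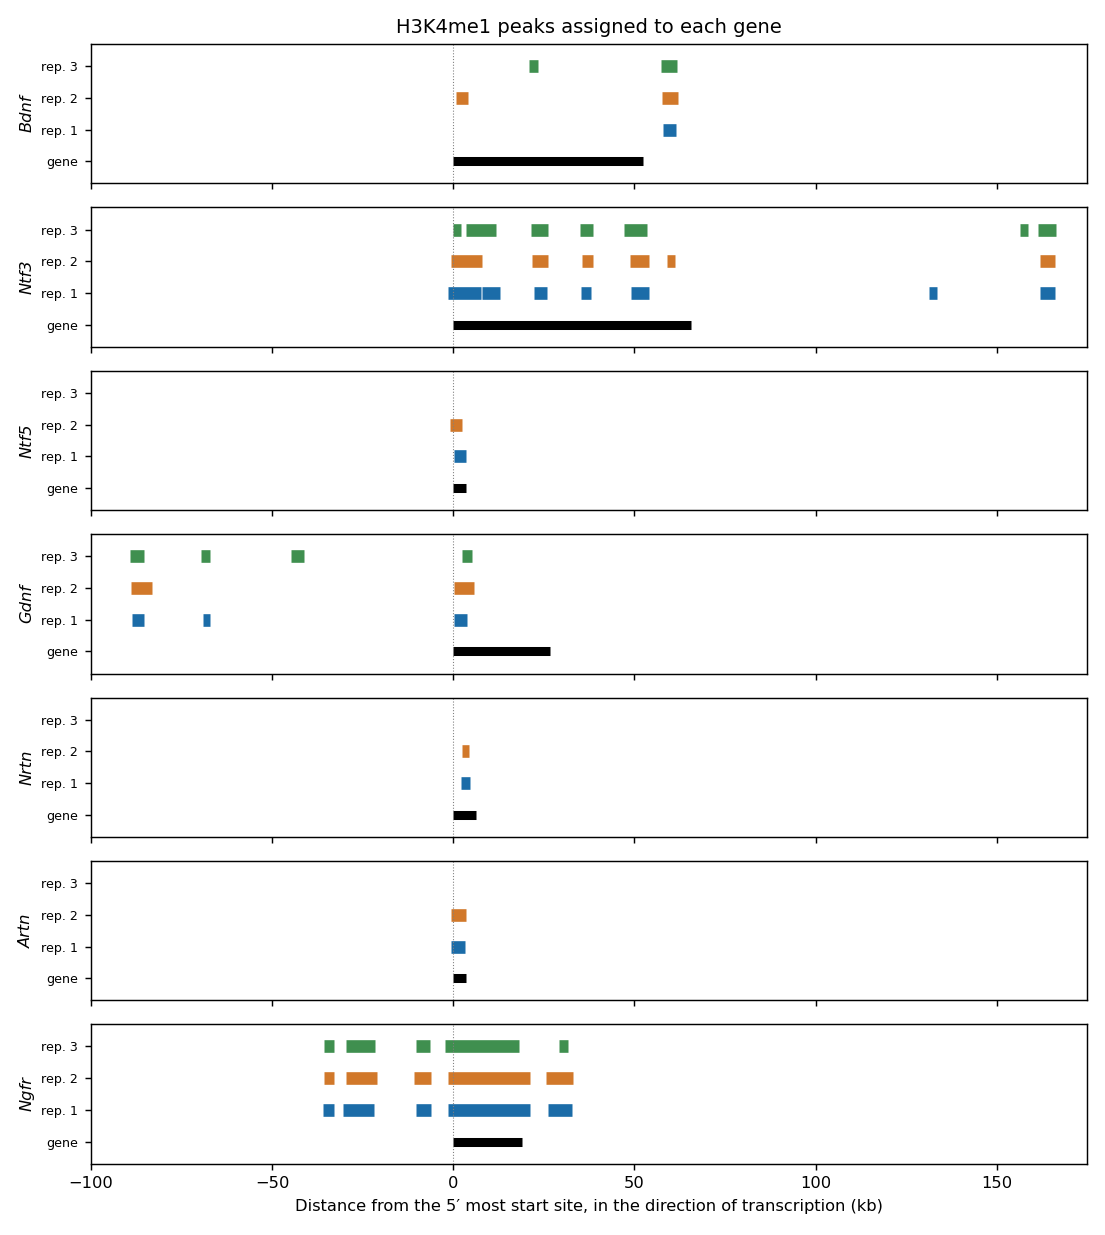
H3K4me1 peaks given to each of the 7 genes in replicates 1, 2 and 3. The horizontal axis is the distance in kb from the 5′ most annotated start site, in the direction of transcription, coloured bars are peaks to scale and the black bar is the gene body. Ngfr and Ntf3 hold peaks in all 3 replicates over their start sites, Bdnf has its recurrent peak past the end of the gene, and Ntf5, Nrtn and Artn are empty in replicate 3.

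Peak coverage, the share of bases of the gene body and its 5 kb flanks that lie within peaks, set the 7 genes apart more finely. Ngfr had 78.0, 78.4 and 70.1% in replicates 1, 2 and 3, on average 75.5 ± 4.69% (SD, n = 3). Only 26 protein-coding genes (0.12%), Ngfr included, had a mean coverage at least as high. Ntf3 followed with 33.4, 30.9 and 33.0%, a mean of 32.4 ± 1.33% (SD, n = 3), which 593 genes (2.73%) reached. With these 5 kb flanks, the replicate values of Ngfr and of Ntf3 did not overlap with each other, nor with those of any of the other 5 genes. For Ntf3 this depended on the flank. With flanks of 2 kb its mean was 35.2 ± 1.44%, within the spread of Artn, at 34.7 ± 30%, and of Ntf5, at 30 ± 26.1% (SD, n = 3).

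Among the other 5 genes the replicate values with 5 kb flanks overlapped, except those of Gdnf and Bdnf, which did not overlap with each other. Artn had 29.2, 28.9 and 0%, with a mean of 19.4 ± 16.8% (SD, n = 3). Ntf5 had 26.3, 23.7 and 0%, with a mean of 16.7 ± 14.5% (SD, n = 3). Gdnf was less variable, at 9.7, 14.7 and 7.7% and a mean of 10.7 ± 3.61% (SD, n = 3). Nrtn had 14.3, 11.5 and 0% and a mean of 8.6 ± 7.59% (SD, n = 3). Bdnf was lowest, at 0, 5.6 and 4.0% and a mean of 3.2 ± 2.88% (SD, n = 3). This too depended on the flank. With flanks of 20 kb Bdnf had a mean of 6.7 ± 2.36%, Gdnf 5.91 ± 1.99% and Nrtn 3.02 ± 2.66% (SD, n = 3). At 52.3 kb Bdnf is the longest of the 7 genes after Ntf3. Coverage is a percent of the window, so a peak of the same length gives a higher value in a short gene. The median of the 7 means was 16.7%, beside a median of 0 over all protein-coding genes, since 71.2% of them had no peak in any replicate.

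**Figure D2:**
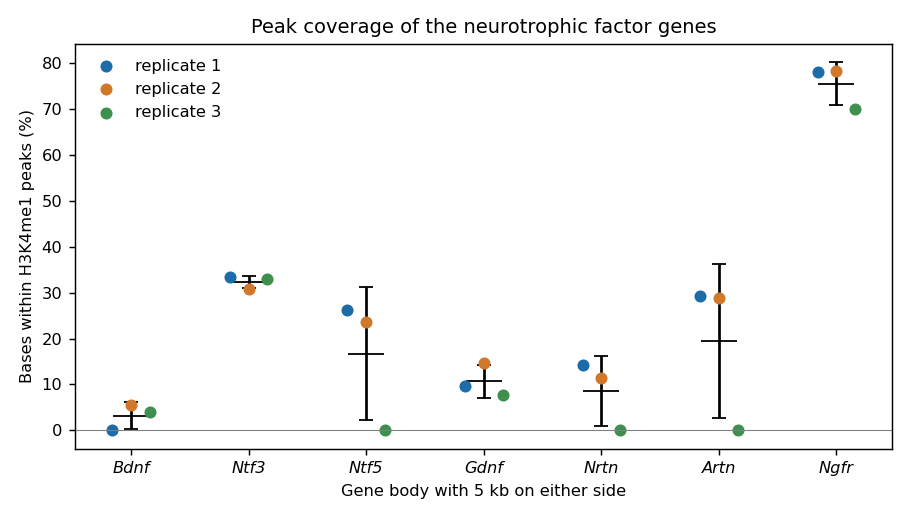
Peak coverage of the 7 genes. The vertical axis is the percent of bases of the gene body with 5 kb on either side that lie within H3K4me1 peaks, points are the 3 replicates, horizontal lines the mean and bars the SD (n = 3). Ngfr lies between 70.1 and 78.4% and Ntf3 between 30.9 and 33.4%, while Artn, Ntf5 and Nrtn fall to 0 in replicate 3.

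Ngfr had the highest coverage of the 7 genes and the strongest peak by total signal. The gene lies on the minus strand at chr11:95568818-95587735 (GRCm38), is 18.9 kb long and has 1 annotated start site. A peak spanned the whole gene body in replicates 1 and 2, and all of it but the 3′ end in replicate 3. Its length was 22559, 22676 and 20270 bp in replicates 1, 2 and 3, where the median peak of the lists had 2981, 3682 and 3352 bp. Its total signal was 531366, 672038 and 333936, or 19.2, 15 and 9.5 times the median of the list. By total signal it ranked 58, 56 and 89 in the lists, at percentiles 99.7, 99.6 and 99.4. By highest pileup, at 144, 154 and 89, it stood at percentiles 97.6, 97.2 and 94.9. By total signal divided by peak length, it stood at percentiles 96.5, 96.1 and 86.2. The strongest Ntf3 peak was higher by that measure, at 98.3, 98.3 and 98.5.

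The places of highest pileup inside the Ngfr gene peak did not coincide. They lay 6.7, 7.7 and 12.3 kb into the gene from the start site in replicates 1, 2 and 3, in a coding exon in replicate 1 and in introns in replicates 2 and 3. The 300 bases around the highest pileup of replicate 2 are shown because this place lies between those of the other replicates, in an intron of the most covered gene, at chr11:95579884-95580183 (GRCm38, plus strand). Capitals mark the bases at the highest pileup.
Ngfr intron: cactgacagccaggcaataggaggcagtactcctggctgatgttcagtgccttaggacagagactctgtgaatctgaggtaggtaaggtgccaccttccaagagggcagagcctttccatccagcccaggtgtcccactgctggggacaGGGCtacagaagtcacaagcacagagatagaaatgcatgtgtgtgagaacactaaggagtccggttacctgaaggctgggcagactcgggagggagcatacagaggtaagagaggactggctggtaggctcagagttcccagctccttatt
This window had a GC content of 54.3% and held 2 CG dinucleotides.

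The Ngfr peak also ran over the start site in all 3 replicates. The bases before the start site, chr11:95587736-95587948 on the minus strand, are shown from the RefSeq promoter set (GRCm38.p6), because this is a promoter that all 3 replicates covered. Capitals mark CG dinucleotides.
Ngfr promoter: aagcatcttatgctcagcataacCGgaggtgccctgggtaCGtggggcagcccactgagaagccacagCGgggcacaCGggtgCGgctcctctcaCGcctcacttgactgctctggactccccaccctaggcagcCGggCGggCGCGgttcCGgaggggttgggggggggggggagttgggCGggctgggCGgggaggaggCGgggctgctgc
These 213 bases had a GC content of 70.9% and 14 CG dinucleotides, whereas the full merged peak region of 23.3 kb had 53.2%.

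Around Ngfr, 4 distal regions had a peak in each of the 3 replicates, so that the gene took 5 peaks in every list. Of all protein-coding genes 4.49, 3.13 and 3.36% took at least as many. The strongest distal region, at chr11:95608771-95618135, began 21.9, 21.0 and 21.6 kb upstream of the gene and stood at percentiles 95.8, 95.8 and 94.3. The region nearest to the start site on the upstream side lay 6.19, 6.26 and 6.42 kb away, at percentiles 88.3, 82.7 and 71.4. The most remote one, 32.9, 32.8 and 32.95 kb upstream, stood at percentiles 63.7, 61.9 and 40.5. All 4 regions were intergenic, and the nearest protein-coding neighbours, Nxph3 and Phb, lie 54.2 and 79.2 kb from the gene. Within 100 kb of Ngfr there were 11, 10 and 10 peaks, of which 6, 5 and 5 went to other genes.

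Downstream of Ngfr, the region chr11:95554621-95562250 stood at percentiles 80.7, 77.5 and 39.6. Its peak was 6622, 7630 and 2586 bp long, so replicate 3 called much less of it. Yet the places of highest pileup fell within 5 bp of each other, 11.7, 11.6 and 11.6 kb past the end of the gene. The 300 bases around them, chr11:95557022-95557321 (GRCm38, plus strand), are shown for that agreement in position. They were picked after the values were seen. Capitals again mark the bases at the highest pileup.
Ngfr downstream: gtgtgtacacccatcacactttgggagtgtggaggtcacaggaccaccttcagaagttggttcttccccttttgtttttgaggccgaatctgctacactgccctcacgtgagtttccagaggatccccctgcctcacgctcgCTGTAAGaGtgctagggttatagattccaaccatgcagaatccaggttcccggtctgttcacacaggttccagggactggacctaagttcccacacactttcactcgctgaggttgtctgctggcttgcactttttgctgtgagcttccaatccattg
The GC content of this window was 52.0%, and 25.7% of it was repeat-masked.

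By coverage in the 3 replicates, the genes most like Ngfr were Rara, Vasn and Skida1. Rara, the gene of a retinoic acid receptor, had 78.6, 77.6 and 69.7% and was the closest, at a Euclidean distance of 1.08 percentage points. Vasn, at 3.09, and Skida1, at 4.58 percentage points, followed. Ngfr can be expressed by Schwann cells, and of the 8 genes of that list Sox10 and Erbb3 had a peak in replicates 1 and 2. Foxd3, Fabp7, Cdh19 and S100b had none in any replicate. In replicate 3 the count was 0 of 8, and the coverage of Ngfr was 70.1%. The part of these cells in the mark at Ngfr was not tested.

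Ntf3 encodes neurotrophin 3, the main ligand of TrkC, on which mechanosensory and proprioceptive neurons depend. The gene covers chr6:126101412-126166910 on the minus strand. It took 7, 6 and 7 peaks in replicates 1, 2 and 3, and 2.56, 2.32 and 1.82% of protein-coding genes took at least as many. Merging gave 8 regions, with 5 called in every replicate and 3 in 1 replicate each. The 3 unshared regions were weak, at percentiles 3.7, 2.6 and 14.2 in replicates 1, 2 and 3.

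The strongest Ntf3 region lay deep in an intron, at chr6:126112908-126119802. It stood at percentiles 94.2, 93.0 and 95.9, a mean of 94.4 ± 1.48 (SD, n = 3). Its highest pileup was 97, 129 and 88 fragments, found 51.7, 51.7 and 52.1 kb from the 5′ start site, and the places in the 3 replicates lay within 405 bp. The total signal per base put it at percentiles 98.3, 98.3 and 98.5, a little above its place by total signal. The 300 bases around the highest pileups of replicates 1 and 2, chr6:126115077-126115376 (GRCm38, plus strand), are shown as the strongest element within a neurotrophin gene. Capitals mark the bases at these pileups.
Ntf3 intron: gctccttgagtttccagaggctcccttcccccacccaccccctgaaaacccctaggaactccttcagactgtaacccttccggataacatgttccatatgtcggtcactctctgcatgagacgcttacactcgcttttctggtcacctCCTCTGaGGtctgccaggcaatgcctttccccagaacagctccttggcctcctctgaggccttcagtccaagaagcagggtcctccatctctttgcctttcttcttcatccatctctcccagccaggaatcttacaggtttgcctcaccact
The window had a GC content of 54.0%, while the region as a whole had 46.7%.

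The 5′ end of Ntf3 was covered by a region of 14.4 kb, chr6:126154064-126168427, at percentiles 90.0, 86.9 and 88.3 by its strongest peak. It was called as 2, 1 and 2 separate peaks in replicates 1, 2 and 3. All 3 annotated start sites of the gene, at 126164960, 126166715 and 126166910, lay under a peak in every replicate. A further pair of intronic regions recurred, at percentiles 74.1, 61.0 and 73.9 and at 71.8, 69.1 and 64.2. The distal region of Ntf3, chr6:126000695-126005470, stood at percentiles 88.5, 79.1 and 89.9. It lies in an intron of Ano2, a gene of a calcium-activated chloride channel, and 96.5, 96.5 and 95.9 kb from the Ntf3 gene body, close to the limit of 100 kb. It was given to Ntf3 because that gene has the nearest start site, and whether it acts on Ntf3 or Ano2 was not tested.

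Bdnf encodes brain-derived neurotrophic factor, a ligand of TrkB. The gene lies at chr2:109674700-109727007 on the plus strand, and an antisense gene, Gm45346, overlaps it. Its 9 GENCODE start sites lie between 109674700 and 109709383. In replicates 1 and 3 none of these start sites lay under a peak. In replicate 2 a peak from 109675347 to 109678834 ran over those at 109675897 and 109677032, but it was among the weakest of its list, at percentile 2.0 and 1.02 times the lowest total signal. In replicate 3 an intronic peak from 109695517 to 109697976 stood at percentile 28.8. Neither was found in another replicate.

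The recurrent Bdnf region lay past the 3′ end of the gene, at chr2:109731980-109736817, in intergenic DNA. It stood at percentiles 67.2, 58.2 and 78.6, a mean of 68.0 ± 10.2 (SD, n = 3). Its edge lay 5552, 5378 and 4973 bp beyond the gene in replicates 1, 2 and 3, on either side of the 5 kb limit. It therefore counted as distal in replicates 1 and 2 and as a peak at the gene in replicate 3. No other protein-coding gene lay within 100 kb, and the nearest were Lin7c at 163.8 kb and Kif18a at 333.0 kb. The highest pileups of replicates 1 and 2 were 1 bp apart, and with that of replicate 3 they spanned 1327 bp. The 300 bases around those of replicates 1 and 2, chr2:109734840-109735139 (GRCm38, plus strand), are shown as the recurrent site at Bdnf, with the highest pileup in capitals.
Bdnf downstream: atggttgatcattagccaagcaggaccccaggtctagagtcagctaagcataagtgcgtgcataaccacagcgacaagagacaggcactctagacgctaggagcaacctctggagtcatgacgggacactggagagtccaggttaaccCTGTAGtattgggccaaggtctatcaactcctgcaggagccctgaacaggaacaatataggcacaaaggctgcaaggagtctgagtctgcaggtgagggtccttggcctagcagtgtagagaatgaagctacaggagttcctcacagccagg
This window had a GC content of 52.7% and 0% of it was repeat-masked.

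Gdnf encodes the founding ligand of the GDNF family and lies on the plus strand at chr15:7810846-7837575. It took 3, 2 and 4 peaks in replicates 1, 2 and 3, and 8.74, 12.1 and 4.86% of protein-coding genes took at least as many. The strongest was an intergenic region at chr15:7721536-7727833, whose near edge lay 85.5, 83.0 and 85.4 kb upstream of the gene. It stood at percentiles 63.0, 72.3 and 67.8, a mean of 67.7 ± 4.66 (SD, n = 3). Further upstream peaks were less regular. A region 67.23 and 67.15 kb from the gene had a peak in replicates 1 and 3, at percentiles 35.0 and 34.5, and one 41.1 kb away was called in replicate 3 alone, at percentile 38.4.
The window of the strongest region, chr15:7724334-7724633 (GRCm38, plus strand), is shown because it holds the highest pileup of replicate 2 and, of the sequences printed here, the only match to a TCF/LEF motif. Capitals mark the bases at the highest pileup.
Gdnf upstream: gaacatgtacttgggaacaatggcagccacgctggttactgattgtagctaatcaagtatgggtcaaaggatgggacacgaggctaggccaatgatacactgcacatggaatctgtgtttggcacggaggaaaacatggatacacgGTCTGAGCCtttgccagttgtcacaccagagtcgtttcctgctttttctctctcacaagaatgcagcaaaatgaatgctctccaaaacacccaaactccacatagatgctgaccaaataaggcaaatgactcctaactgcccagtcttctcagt
The match lies at bases 64 to 69 of the window.

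At the Gdnf gene itself, the region chr15:7810974-7816444 had a peak in all 3 replicates, at percentiles 45.9, 64.1 and 11.9. The GENCODE start site at 7810846 was not under a peak in any replicate, and a peak lay within 1 kb of it in replicates 1 and 2. RefSeq places a further start site at 7813727, within this region, and that one was under a peak in all 3 replicates. The 250 bases before it, chr15:7813477-7813726 on the plus strand (RefSeq, GRCm38.p6), are shown as the Gdnf promoter that the replicates shared, with CG dinucleotides in capitals.
Gdnf second promoter: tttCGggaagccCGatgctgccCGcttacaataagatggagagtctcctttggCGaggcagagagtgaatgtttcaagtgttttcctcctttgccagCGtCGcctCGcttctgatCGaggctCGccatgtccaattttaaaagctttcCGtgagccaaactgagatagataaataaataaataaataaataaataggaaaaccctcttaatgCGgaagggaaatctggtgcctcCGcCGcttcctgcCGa
These bases held 14 CG dinucleotides at a GC content of 46.8%.

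Ntf5, Nrtn and Artn are short genes, of 3.5, 6.2 and 3.6 kb, and each had a lone weak peak in replicates 1 and 2. At least 1 peak was given to 28.7 and 25.9% of protein-coding genes in these replicates. Ntf5, the gene of neurotrophin 4, a further TrkB ligand, lies at chr7:45413695-45417179 on the plus strand. Its peaks stood at percentiles 32.2 and 24.3, with 1.45 and 1.28 times the lowest total signal of the list. The peak of replicate 2 covered both start sites, and that of replicate 1 covered the one at 45413904. Nrtn, the gene of neurturin, lies at chr17:56751325-56757530 on the minus strand. Its peaks, at percentiles 15.9 and 3.8, had 1.18 and 1.03 times the lowest total signal. By signal per base they stood higher, at percentiles 18.2 and 52.4. They lay inside the gene and reached within 1 kb of its start site in neither replicate.

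Artn encodes artemin, a ligand for sympathetic and nociceptive neurons, and lies at chr4:117926162-117929763 on the minus strand. Its peaks, at percentiles 41.4 and 36.0, had 1.67 and 1.49 times the lowest total signal. They covered all 4 start sites of the gene, and their highest pileups were 98 bp apart. The 250 bases before the 5′ most start site, chr4:117929764-117930013 on the minus strand (RefSeq, GRCm38.p6), are shown because the peaks of both replicates ran over them. CG dinucleotides are in capitals.
Artn promoter: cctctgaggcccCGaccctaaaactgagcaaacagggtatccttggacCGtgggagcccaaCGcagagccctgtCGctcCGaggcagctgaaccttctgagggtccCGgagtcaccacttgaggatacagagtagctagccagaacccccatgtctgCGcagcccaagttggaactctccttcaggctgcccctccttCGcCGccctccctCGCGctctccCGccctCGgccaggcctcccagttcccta
They held 13 CG dinucleotides and, at bases 223 to 231, a match to an AP-2 motif.

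These 3 genes stand among many others, with 15, 8 and 7 further protein-coding genes within 100 kb of Ntf5, Nrtn and Artn. Bdnf, Ntf3, Gdnf and Ngfr had 0, 1, 1 and 3. Around Ntf5, 4 peaks in replicate 1 and 4 in replicate 2 went to other genes, and in replicate 3 no peak lay within 100 kb.

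**Figure D3:**
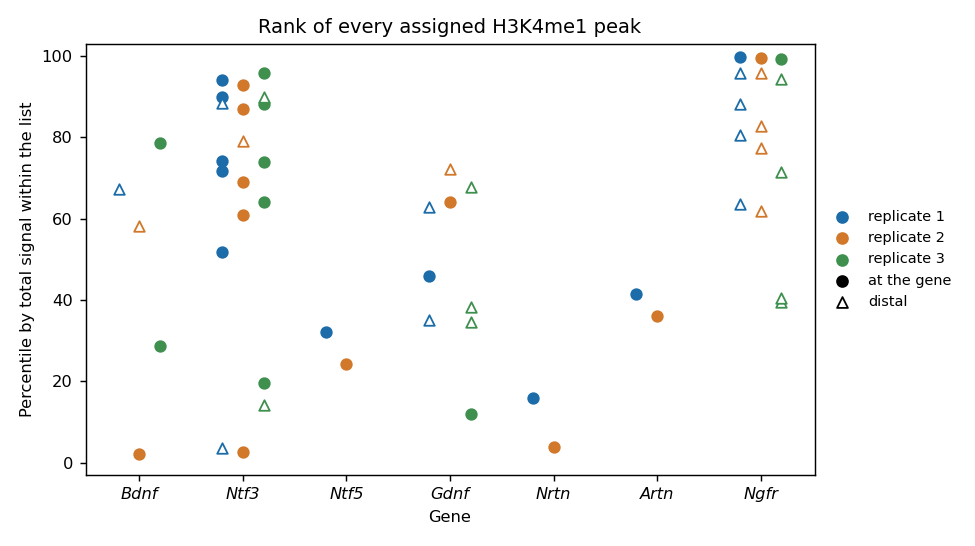
Percentile by total signal of every peak given to the 7 genes, within the list of its own replicate. Filled circles are peaks at the gene or its 5 kb flanks, open triangles are distal peaks and colours are replicates. The highest points are those of Ngfr, between 99.4 and 99.7, and those of Ntf3, between 93.0 and 95.9, and no peak of Ntf5, Nrtn or Artn stands above 41.4.

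Peaks at start sites were counted within 1 kb of any annotated start site. Of the 7 genes, 5, 6 and 2 had such a peak in replicates 1, 2 and 3, on average 4.33 ± 2.08 (SD, n = 3). Among all protein-coding genes the shares were 14.2, 13.5 and 10.2%. Ntf3 and Ngfr had a start site peak in all 3 replicates, which is 28.6% of the 7 genes, against 7.41% of all. Nrtn had none.

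GC content was higher in the peak regions of the genes that lacked a peak in replicate 3. Over the gene body with its 5 kb flanks this did not hold for Artn, at 52.5%, beside 52.7% for Ngfr. Ntf5 and Nrtn had 55.3 and 56.1%, and Bdnf, Ntf3 and Gdnf 40.8, 46.6 and 46.6%. The merged regions of Ntf5, Nrtn and Artn had a GC content of 57.7, 58.7 and 58.8%, against 44.4 to 54.3% in the regions of the other 4 genes that all replicates called. Over all genes, the median was 47.3% in 8916 regions with a peak in all 3 replicates and 52.4% in 2628 regions with peaks in replicates 1 and 2 only. Of 894 regions with peaks in replicates 1 and 2 and a GC content of 55% or more, 34.9% also had one in replicate 3. Of 2492 such regions under 45%, 98.6% did. Strength was also related to recurrence. Of 1683 such regions at 50% or more with a mean percentile under 50, the range in which these 3 genes lie, 15.9% had a peak in replicate 3, and of 2601 at 50 or over, 79.9% did. Below a GC content of 50% the shares were 79.9% of 3122 weaker and 98.5% of 4138 stronger regions. The part of GC content in the missing peaks was not tested.

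Signal was also compared in regions that replicate 3 did call. The share of a region in the total signal of its list was compared between replicates 3 and 2 as a log2 ratio. This share is a sum over the bases that each replicate called, so the called length enters it. The median log2 ratio was 0.68 in regions under 45% GC, 0.05 from 45 to 50% and -0.65 at 50% or more. The Ngfr gene region, at a GC content of 53.2%, had a log2 ratio of -0.60, with 20270 bp called in replicate 3 and 22676 in replicate 2 and a mean pileup of 16.5 and 29.6. Its downstream region, at 51.2%, had -1.13, but there the mean pileup was alike, at 11.6 and 11.3, and the called length differed, at 2586 and 7630 bp. The other 3 Ngfr regions, at 54.0, 49.8 and 53.0%, had -0.56, -0.48 and -0.50. The Gdnf gene region, at 54.3%, had -1.06, with 2845 and 5417 bp called and a mean pileup of 7.62 and 11. The Gdnf upstream region, at 45%, had -0.19. The recurrent Bdnf region, at 44.4%, had a log2 ratio of 0.71, with 4421 and 4433 bp called and a mean pileup of 14.7 and 11.9. The 5 recurrent Ntf3 regions, between 46.7 and 49.1%, ranged from -0.17 to 0.55.

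**Figure D4:**
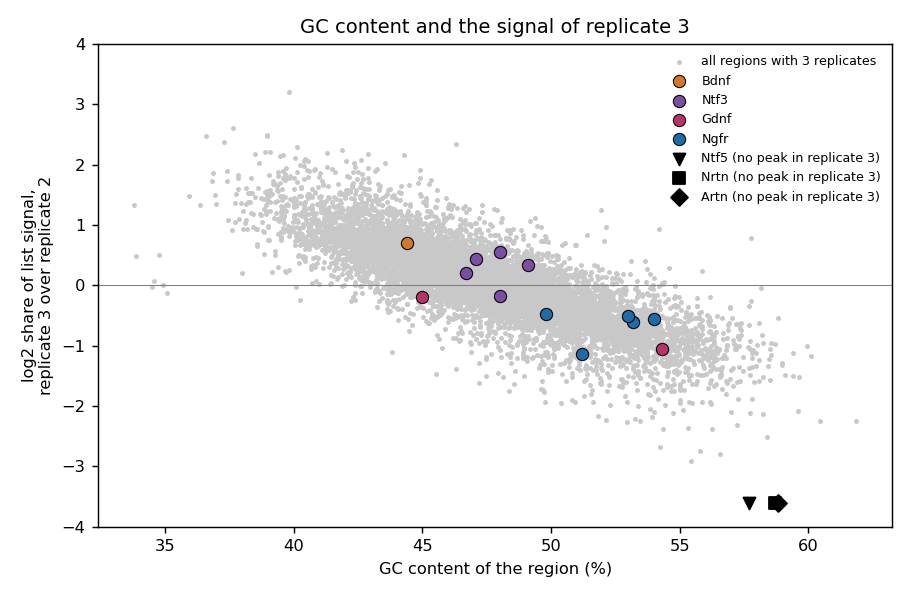
GC content and signal of replicate 3. The horizontal axis is the GC content of a merged region in percent and the vertical axis the log2 ratio of its share of the list signal in replicate 3 over replicate 2, in which the called length enters. Grey points are the 8916 regions with a peak in all 3 replicates and coloured points those of Bdnf, Ntf3, Gdnf and Ngfr. The black symbols for Ntf5, Nrtn and Artn show GC content only and are set at the lower edge, since these regions have no peak in replicate 3. The ratio is lower at higher GC content, with a median of 0.68 under 45% and -0.65 at 50% or more.

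Motifs were searched on both strands of the 300-base windows around the highest pileup and in the promoters. The motifs were CTTTGA (TCF/LEF), TAATTA (homeodomain), GCCNNNGGC (AP-2) and AGNGAAAG (Prdm1, a regulator of whisker formation that the study followed). The windows of Ngfr, in the gene, of Ntf3 and of Bdnf held none of these letters. The Gdnf window held the TCF/LEF match given above, as did 17.7% of 8916 windows of the same length over regions in all replicates. The window downstream of Ngfr held a Prdm1 match at bases 240 to 247, as did 9.8% of windows. The AP-2 match of the Artn promoter is one that 16.6% of 32851 RefSeq promoters had. Among promoters not printed, a TCF/LEF match lay before the Ntf3 start site at 126164960 and a Prdm1 match before the Bdnf start site at 109693027, motifs that 16.0 and 8.6% of RefSeq promoters had. TAATTA was in 4.6% of windows and in none of those printed. None of the 4 motifs contains another. A match is a run of letters and not a shown binding site.

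Other genes of the neurotrophin and GDNF pathways were taken from a list of 22 genes. A peak lay at 12, 13 and 10 of them in replicates 1, 2 and 3, or 54.5, 59.1 and 45.5%, and at 10 of them (45.5%) in all 3 replicates. Of all protein-coding genes, 24.9, 22.6 and 19.6% had one, and 15.5% in all 3. These shares were not matched on gene length either, and the listed genes range from 0.6 kb in Pspn to 562.1 kb in Ntrk3. A peak can be called at a long gene with little coverage, as at Sorcs2, of 381.0 kb and a mean coverage of 8.5%, and Lingo1, of 178.0 kb and 1.2%. The mean coverage of the list had a median of 1.4%, against 0 for all protein-coding genes. Pspn, the gene of the ligand persephin, had no peak.

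The receptors of these ligands were covered unevenly. Ntrk2, the gene of TrkB, had 1.1, 0.7 and 0%, and Ntrk3, the gene of TrkC, had no peak in any replicate, like Ret. Among the co-receptors of the GDNF family, Gfra1, which binds GDNF, had 7.5, 4.6 and 8.3%. Gfra2, which binds neurturin, had 2.6, 2.4 and 0%. Gfra3, which binds artemin, and Gfra4 had no peak. The ligand genes Ntf3 and Gdnf had a peak at the gene in every replicate. Among the genes of their receptors the same was true of Gfra1 and of Ngfr, whose p75 binds neurotrophins, but not of Ntrk3 or Ret.

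Genes whose products work with p75 were also covered in part. Sort1 and Sorcs2, co-receptors for the uncleaved neurotrophins, and Lingo1 and Rtn4r, partners of p75 in the Nogo receptor, had a peak in all 3 replicates. Nradd, a relative of Ngfr, had one in replicate 2 only, at percentile 2.5. Bex3 and Maged1, which bind the inner part of p75, had none. Among the adaptors of Trk receptors, Shc1 had a coverage of 27.7, 22.4 and 13.6%, whereas Kidins220 and Frs2 had no peak. Furin and Pcsk6, which cleave precursor proteins, had a peak in all 3 replicates, at 21.0, 29.4 and 17.2% and at 14.3, 16.9 and 12.4%.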

How the data were processed

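H3K4me1 CUT&Tag peaks were taken from 3 of the 6 samples, grouped by their titles. Per the labels, the authors used Bowtie2 2.3, SAMtools 0.1.19, bedtools and SEACR 1.3 with mm10. Peaks were called per replicate with the stringent setting and no IgG, at a top fraction of 1% of signal blocks. The total and maximum signal in the deposited lists are whole-number pileups that the authors did not scale to depth. The handling of duplicate reads is not given in the sources used here, and the depth each library reached was not measured here.

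Peaks were joined to GENCODE vM21 genes (GRCm38) with at least 1 bp of overlap, in Python 3.11.15 with numpy 2.4.6, pysam 0.24.0 and matplotlib 3.10.9. All peaks ended within the GRCm38 chromosomes. Peaks of the 3 lists that overlapped were merged into regions. Values are means ± SD over replicates, described with no test. The shares over all protein-coding genes stand beside the counts. The functions were tested on simulated peaks. Coordinates are 1-based, and sequences came from the RefSeq GRCm38.p6 genome and promoters, which held 6 of the 7 genes.

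Named were the 7 genes, the 22 pathway genes, protein-coding genes holding an assigned region, and the 3 genes closest to Ngfr in coverage. Members, lists, motifs and alternatives were chosen with earlier results of these data known. The alternatives covered flanks of 2 and 20 kb, the stronger 50% and strongest 10000 peaks, 500 bp of overlap, joined peaks, reaches of 50 and 200 kb, peak centres, other start sites, maximum signal, signal per base and dropping each replicate. Drgx of the sensory neuron list was not matched. The values of some listed genes are not reported here, although these genes stay in the counts of their lists.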

Additional observations from a re-analysis of the deposited data

How the results depend on the processing

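Across 27 results, 140 alternative values stayed within the replicate spread, or within 1.5 times for a count, and 35 moved further. Changes in the order of the genes were not counted. For coverage and percentiles, leaving out 1 replicate cannot move a mean beyond the replicate spread. Those values were therefore bound to stay within it and say nothing on stability. With the stronger 50% of each list, where fewer peaks enter by construction, the mean number of the 7 genes with a peak was 2.67, of those with a start site peak 2, and of assigned peaks 12. The mean coverage over the 7 genes, 23.8% as reported, was then 15.8%, and Ntf5, Nrtn and Artn had 0%. Under this setting adult kidney genes with a peak averaged 0.333 and sensory neuron genes 0, and with the strongest 10000 peaks these were 0.667 and 0.333. Flanks of 2 kb gave a mean coverage of 32% and flanks of 20 kb 16.1%, since the window changes in length. Leaving out each replicate moved the number of genes with a peak in all remaining replicates, 3 as reported, from 3 to 6, the highest without replicate 3. Sensory neuron genes ranged from 0, without replicate 2, to 1. The shares over all protein-coding genes were not computed under the alternatives, so these counts cannot be set against all genes. By signal divided by peak length, Artn stood at a mean percentile of 10.2, Ntf5 at 12.2 and Nrtn, which was lowest by total signal, at 35.3. Ngfr, which was highest by total signal, stood at 93.4 and Ntf3 at 98.4. By maximum signal Bdnf stood at 53.1 and Ntf5 at 8.8. With start sites of all gene types, 13 assigned peaks remained on average. The cause of changes other than those given by construction was not tested. No paired analysis was possible because only H3K4me1 samples were analysed here and the pads of 1 group have no partner. Absence of a peak does not show absence of H3K4me1, since a fixed share of blocks was kept and the depth of each library was not measured.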
